A study of Oryza sativa with 18 samples.

Results

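The genes described here are the annotated genes of rice chromosome 2 whose start lies below 8 Mb (8000000 bases) in IRGSP-1.0 coordinates, at one end of the chromosome. Membership was set by position alone, from the gene list of the pCPL comparison, and not by any measured level. The stretch itself was chosen with earlier results of these data known. There are 1093 of them among 36844 annotated genes of that list, and all 1093 were also found by gene identifier in the YIL25 and pOE lists. An MSU locus name was given for 853 of them, 28 are noncoding RNA entries, and 40 unannotated entries in the same stretch were left out.

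An introgression line is made by crossing a donor into a recipient and backcrossing, so that a few donor segments remain in the recipient genome and every gene inside a segment is present as the donor allele. Where such an allele differs in its promoter, in its transcribed sequence or in its very presence, the level of its transcript can differ in cis, that is, for that gene copy alone, whereas a single transgene placed elsewhere leaves the alleles of the segment as they were and can only reach them in trans. Callus is a mass of dividing, undifferentiated cells that rice transformation starts from, and BOC1, the gene under study, encodes a protein of the SRO family (similar to radical-induced cell death one), a plant family known for roles in oxidative stress.

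RNA was measured in callus subcultured for 21 days, in 18 libraries that form 6 groups of 3 biological replicates. YIL25 carries segments of a common wild rice accession (Oryza rufipogon) on the short arms of chromosomes 2, 3 and 5 in the background of Teqing, an indica cultivar, and was compared with the Teqing group sequenced beside it (Teqing1). pCPL is Teqing transformed with the genomic BOC1 gene of YIL25 with its own flanking sequence (compared with Teqing2), and pOE is Teqing transformed with the BOC1 coding sequence of YIL25 behind a Ubiquitin promoter (compared with Teqing3). The native BOC1 gene lies on chromosome 3, and where the transgenes had inserted was not given in the sources used here. Because pCPL and pOE were made in Teqing, the 1093 genes are Teqing alleles in both, as in Teqing1, Teqing2 and Teqing3. In YIL25 they lie on the arm that carries a wild rice segment. The ends of that segment were not determined here, so a gene among the 1093 may lie outside it, and which transgenic lines gave the pCPL and pOE libraries was not given in the sources used here.

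Levels are FPKM, the number of fragments on a transcript divided by its length and by the size of its library, and each of the 3 comparisons was deposited as a table normalized on its own. The libraries behind these values held 35150000 to 43350000 fragments in Teqing1 and YIL25, and 16270000 to 24730000 in the other 4 groups, so that 1 fragment on a transcript of 1500 bases is worth 0.0154 to 0.0409 FPKM. Dividing cells were represented, with group means of 41.5 to 84.4 FPKM for PCNA and 4.04 to 13.8 FPKM for CYCB1;1, whereas the leaf marker LHCB stayed at or below 3.26 FPKM and the endosperm marker glutelin at or below 1.39 FPKM in every group. BBM1 and RBCS could be read in the pCPL and pOE tables only, at 40.4 to 83.9 FPKM and at most 0.0710 FPKM. The tables also differed for a few entries beyond any group: 7 members were at a mean above 1 FPKM in Teqing2 and Teqing3 but at 0 in all 6 libraries of the YIL25 table, and 1 member, Os02g0181200, which overlaps Os02g0181300, showed the reverse. Levels set across tables are therefore given as values, and each test was made within a table or on the difference of 2 within-table changes. In such bulk libraries, fewer cells that use a gene and less RNA of it per cell cannot be told apart.

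Of the 1093 genes, 955 were above 0 in at least 1 library and 138 were at 0 in all 18. In Teqing1, 593 had a mean above 1 FPKM, 338 above 10 FPKM and 42 above 100 FPKM. A gene was tested in a comparison when its mean was above 1 FPKM in either group, which left 634 genes for YIL25 (459 were not tested). Of the 634, 41 passed only through YIL25 and 63 only through Teqing1. A gene was called at a limma fold change of at least 2 on the log2(FPKM + 1) scale and an adjusted p under 0.001. The adjustment was Benjamini-Hochberg over every gene tested in the table.

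YIL25 differed from Teqing1 in 164 of the 634 genes tested (25.9%), where 21.1% of all genes tested in that table were called. That table stops at 65535 entries, and of its 10521 annotated genes that the other comparisons list too, 5045 lie on chromosome 1, 4063 on chromosome 2 and 769 on chromosome 3. Of the 8196 entries tested in it, 5742 are such shared genes, of which 19.4% were called (6.60% higher, 12.8% lower). Background shares that involve YIL25 are therefore not shares of the whole genome, rest mostly on chromosomes 1 and 2 where they are over shared genes, and include the members. Higher calls numbered 63 (background 8.41%) and lower calls 101 (background 12.7%), and the median log2 fold change over the 634 genes was -0.21. In the rest of chromosome 2, 18.5% of tested genes were called and in chromosome 1, 18.8%. Changes called and at least 4-fold numbered 37, with 19 higher and 18 lower, or 5.84% of the genes tested, beside 3.76% in the rest of chromosome 2, 2.66% in chromosome 1 and 3.36% over the tested genes of all 3 tables (higher 1.34%, lower 2.02%). pCPL differed from Teqing2 in 82 of 642 genes (12.8%, background 13.8%), 47 higher (background 7.84%) and 35 lower (background 5.97%). Of the 642 tested, 17 were called and at least 4-fold (background 2.05%), 13 higher (background 1.46%) and 4 lower (background 0.589%). pOE differed from Teqing3 in 97 of 650 genes (14.9%, background 15.8%), 35 higher (background 6.95%) and 62 lower (background 8.9%). Of the 650 tested, 22 were called and at least 4-fold (background 2.87%), 3 higher (background 0.697%) and 19 lower (background 2.17%). The shares of members called in pCPL and pOE were thus near those of all genes. The share in YIL25 was above that of its table at the filter of 1 FPKM. With a filter of 5 FPKM the YIL25 shares were close to those of the table. Of the members, 9.935% were then higher and 15.98% lower, beside 10.23% and 15.09% of all entries tested. No test of these shares against other genes was made.

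**Figure D1:**
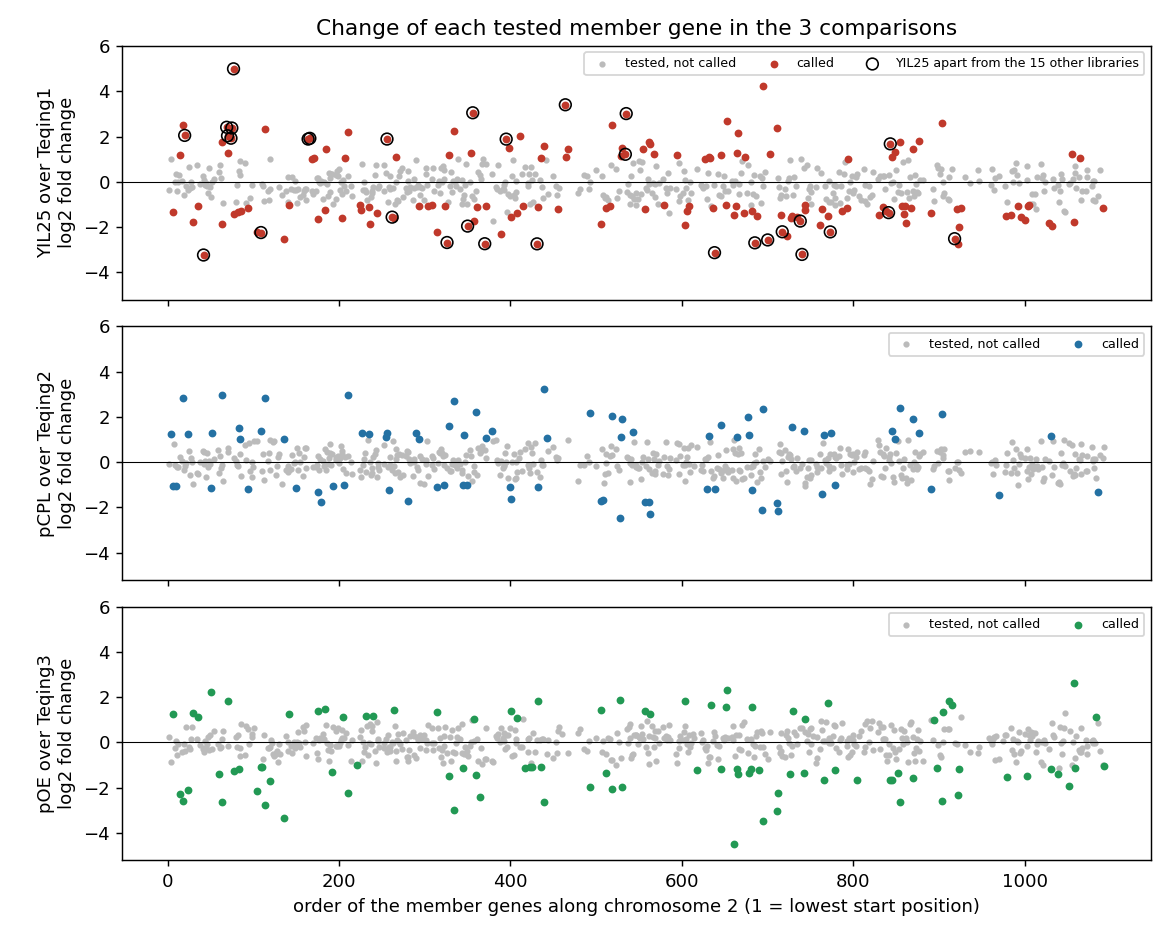
Log2 fold change on the log2(FPKM + 1) scale (y axis) of each tested member gene in order along chromosome 2 (x axis, gene number), for YIL25 over Teqing1, pCPL over Teqing2 and pOE over Teqing3. Coloured points are called genes, grey points tested genes that were not called, and rings mark the 31 genes in which all 3 YIL25 libraries stood apart from the 15 other libraries.

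The scaling of the libraries bears on the balance of these calls. With median-of-ratios scaling in place of FPKM as deposited, the median log2 fold change over all tested genes of the YIL25 table moved from -0.13 to 0.02. The window calls moved from 63 higher and 101 lower (38.4% higher) to 74 higher and 81 lower (47.7% higher). Over the whole YIL25 table the share of higher calls moved from 39.8% to 50.7%. No called change of a member took the other sign under that scaling. Among the changes that were not called and are given below, the YIL25 change of Os02g0111700 went from -0.13 to 0.04 and that of Os02g0137500 from -0.02 to 0.14, so neither has a direction.

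To find the genes in which YIL25 differed from every library of Teqing alleles, members were sought whose 3 YIL25 libraries all lay above the highest, or all below the lowest, of the 15 other libraries by at least 1 on the log2(FPKM + 1) scale. This is a description without a test. There were 31 such genes, 15 higher and 16 lower, or 2.84% of the members, where 1.4% of the 10521 genes shared by the 3 tables met the rule (higher 0.494%, lower 0.903%). The rest of chromosome 2 held 51 in 2970 genes (1.72%) and chromosome 1 held 56 in 5045 (1.11%). Of the 31, 3 were called in pCPL and 2 in pOE, where 13.8% and 15.8% of all genes tested were called. In 10 of the 31 every group but YIL25 had a mean under 0.5 FPKM, so these 10 were not tested in pCPL or pOE. The smallest gap was 1.04, the median 1.63 and the largest 4.81 on the log2 scale. None of the 31 was on the gene lists the study drew from these samples, and 5 of the entries overlap another entry. The genes standing apart, their neighbours and those of single stretches below were singled out after their values were seen. A test of such a gene against Teqing1 is therefore not independent of that choice. Neither is a test of the difference between its YIL25 change and that of a transgenic line. No adjusted p against Teqing1 is given where a gene was tested only because 1 of its 2 groups was above 1 FPKM.

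**Figure D2:**
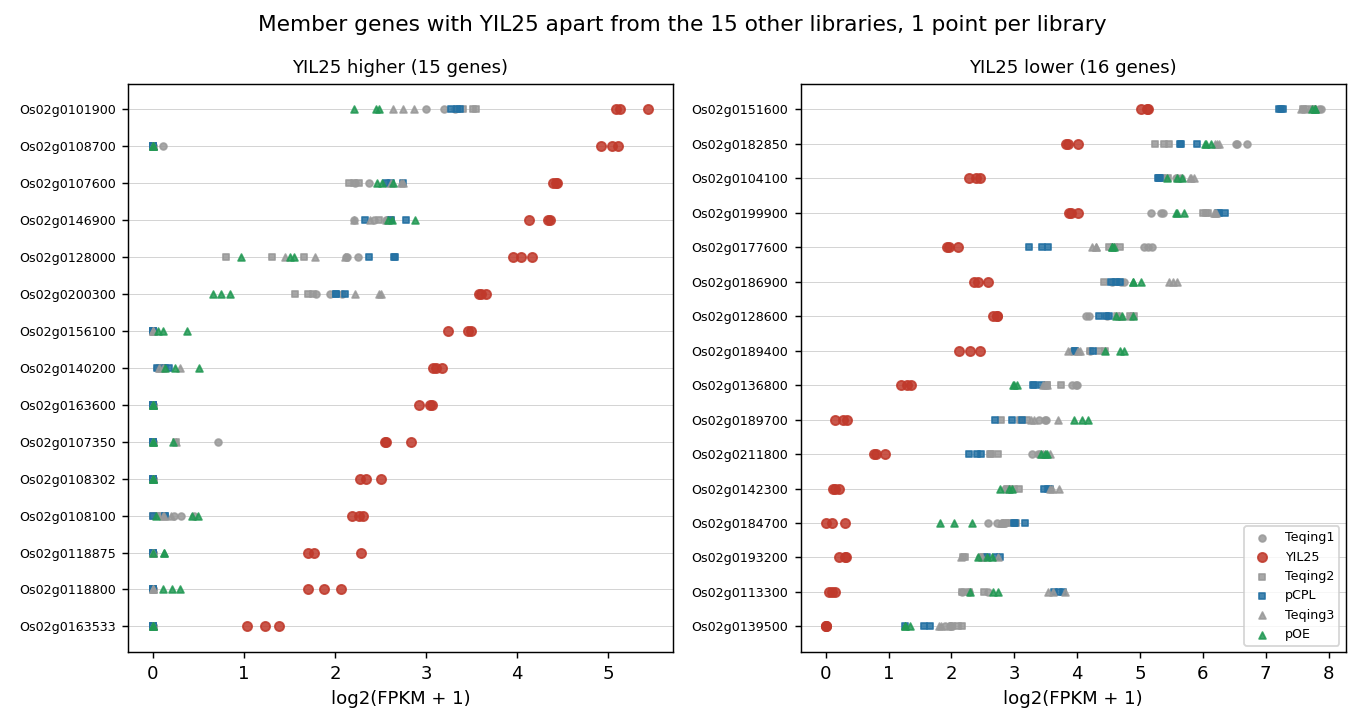
Level on the log2(FPKM + 1) scale (x axis) of the 31 genes in which YIL25 stood apart, 1 row per gene and 1 point per library. Red circles are YIL25, grey points the 3 Teqing groups, blue squares pCPL and green triangles pOE; in each of the 15 genes on the left the YIL25 points lie above all others and in each of the 16 on the right below all others.

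In 10 of the 15 genes that were higher, every other group had a mean under 0.5 FPKM (0.133% of all shared genes met this), so that a transcript seen in YIL25 was at or near the floor in Teqing alleles. The most abundant of them was Os02g0108700 (LOC_Os02g01880), a short gene at 487231 to 487548. Its YIL25 libraries read 32, 29.4 and 33.6 FPKM and its Teqing1 libraries 0.0828, 0 and 0 FPKM, and it was listed at 0 in all 12 libraries of the other tables. Os02g0156100 (LOC_Os02g06170, from 3080552 to 3082828) followed, at 10.04, 10.3 and 8.45 FPKM in YIL25. It was listed at 0 in Teqing1, Teqing2, Teqing3 and pCPL, and at 0.293, 0.0804 and 0.0387 FPKM in pOE. In both genes the YIL25 libraries lay far above all others, without overlap.

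The third in order, Os02g0140200 (LOC_Os02g04730, from 2148516 to 2153358), stood at 8.04, 7.47 and 7.6 FPKM in YIL25, and low but above 0 in each of the 15 other libraries, 0.0311 to 0.418 (median 0.0827) FPKM. The YIL25 libraries did not overlap the others. Os02g0163600 (LOC_Os02g06790, from 3428550 to 3431067) was at 7.26, 7.4 and 6.57 FPKM in YIL25 and listed at 0 in all 15 other libraries. The others of the 10 had lower YIL25 means: 5.29 FPKM in Os02g0107350, 4.2 in Os02g0108302, 3.77 in Os02g0108100, 2.84 in Os02g0118875, 2.71 in Os02g0118800 and 1.33 in Os02g0163533.

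Several of these genes were neighbours. Between 426505 and 487548, the genes Os02g0107350, Os02g0107600, Os02g0108100, Os02g0108302 and Os02g0108700 all stood apart and higher. Os02g0107350 read 4.84, 6.11 and 4.91 FPKM in YIL25 against 0, 0 and 0.641 in Teqing1, and Os02g0108100 3.79, 3.56 and 3.96 against 0.234, 0.171 and 0.369. Os02g0108302 read 4.05, 4.69 and 3.85 in YIL25 and was listed at 0 in all 15 others. These 3 entries have no locus name, and Os02g0108100 and Os02g0108302 overlap Os02g0108000 and Os02g0108400, which stayed at means of 0.37 and 0 FPKM in YIL25. Os02g0107600 (LOC_Os02g01790), by contrast, was expressed in every library: 20.7, 20.5 and 19.99 FPKM in YIL25 and 3.46 to 5.73 (median 4.89) in the 15 others (log2 fold change 2.03, SE 0.09, adjusted p = 4.0e-06). Not every gene of the stretch stood apart. Os02g0107800 (LOC_Os02g01810) inside it was at 54, 51.5 and 52.7 FPKM in YIL25 and 21.8, 22.7 and 20.2 in Teqing1 (log2 fold change 1.25, SE 0.05, adjusted p = 2.1e-06), but reached 121, 115 and 117 in pOE, and the first gene past the stretch, Os02g0108800 (LOC_Os02g01890), was lower in YIL25 (0.924, 0.543 and 0.837 against 4.52, 2.96 and 3.77).

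Another pair lay at 978845 to 991828. Os02g0118800 (LOC_Os02g02660) read 2.27, 2.68 and 3.2 FPKM in YIL25 and Os02g0118875 (LOC_Os02g02670) 3.87, 2.26 and 2.4, both listed at 0 in Teqing1, Teqing2, Teqing3 and pCPL and at no more than 0.231 FPKM in pOE. The entry Os02g0118900, which carries the same locus name as Os02g0118875, was at 0 in all 18 libraries. A run of neighbours, at 3408036 to 3431067, held 5 consecutive genes that were listed above 0 in all 3 YIL25 libraries and at 0 in the 15 others. Their YIL25 means were 0.317 FPKM in Os02g0163300, 0.17 in Os02g0163400, 0.789 in Os02g0163500, 1.33 in Os02g0163533 and 7.08 in Os02g0163600, and 2 of them passed the gap of 1. In all, 16 members were above 0 in every YIL25 library and at 0 in the 15 others (0.485% of all shared genes), beside 10 in the rest of chromosome 2 and 23 in chromosome 1. The reverse, 0 in YIL25 and above 0 in every other library, held for 6 members (0.105% of all shared genes), beside 3 in the rest of chromosome 2 and 2 in chromosome 1. YIL25 and Teqing1 were sequenced more deeply than the other 4 groups, and the 16 genes were at 0 in Teqing1 too, at 35150000 to 39580000 fragments a library. By group means, 8 members were above 1 FPKM in YIL25 and listed at 0 in Teqing1 (0.124% of all shared genes) and 1 the other way (0.0285%).

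The other 4 genes that stood apart and higher were expressed in all groups. Os02g0101900 (LOC_Os02g01190), the first of the 31 along the chromosome (from 110806 to 112358), read 42.4, 33 and 34.1 FPKM in YIL25 against 6.98, 8.19 and 8.99 in Teqing1 (log2 fold change 2.05, SE 0.12, adjusted p = 1.1e-05). The 15 other libraries of this gene ran from 3.61 to 10.7 (median 8.19) FPKM, and neither pCPL (log2 fold change -0.16) nor pOE (-0.37) was called. Os02g0146900 (LOC_Os02g05360) rose from 3.62, 4.88 and 4.37 FPKM in Teqing1 to 16.6, 19.3 and 19.6 in YIL25 (log2 fold change 1.88, SE 0.11, adjusted p = 1.0e-05) while its pCPL and pOE changes were 0.01 and 0.31. In both genes the YIL25 libraries lay above all others with no change called in the transgenic lines. Os02g0128000 (LOC_Os02g03570) was at 15.5, 16.9 and 14.5 FPKM in YIL25 and 3.35, 3.38 and 3.75 in Teqing1 (log2 fold change 1.89, SE 0.08, adjusted p = 2.5e-06), and was also called higher in pCPL (1.30), whose libraries nevertheless stayed at 5.25, 4.18 and 5.33. Os02g0200300 (LOC_Os02g10660) was at 10.9, 11.1 and 11.7 FPKM in YIL25 and 2.46, 3.22 and 2.86 in Teqing1 (log2 fold change 1.68, SE 0.09, adjusted p = 7.5e-06) and was called lower in pOE (-1.65).

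Among the 16 genes that stood apart and lower, the median Teqing1 mean was 15 FPKM, and in 6 of them YIL25 was under a mean of 0.5 FPKM (0.124% of all shared genes met this). Os02g0139500 (LOC_Os02g04690, from 2110965 to 2118966) was listed at 0 in all 3 YIL25 libraries, beside 2.72, 2.95 and 2.99 FPKM in Teqing1 and 1.4 to 3.52 (median 2.56) over the 15 others. Os02g0142300 (LOC_Os02g04950, from 2318214 to 2323337) read 0.113, 0.0816 and 0.153 FPKM in YIL25 against 6.45, 6.63 and 6.21 in Teqing1 (log2 fold change -2.73). Os02g0189700 (LOC_Os02g09670, from 4967961 to 4971634) read 0.113, 0.261 and 0.212 against 10.2, 9.53 and 10.4 (log2 fold change -3.21). In all of these the YIL25 libraries were near the floor and every library of Teqing alleles was clearly above it. The same held for Os02g0184700, Os02g0193200 and Os02g0113300, with YIL25 means of 0.104, 0.215 and 0.072 FPKM against Teqing1 means of 5.54, 4.63 and 4.11. Os02g0113300 is the one of these 6 that was also called in the transgenic lines, higher in pCPL (12.1, 12.7 and 11.4 against 4.71, 3.85 and 3.5) and lower in pOE (5.66, 3.93 and 5.34 against 13, 10.7 and 11.2).

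Abundant transcripts fell as well. Os02g0151600 (LOC_Os02g05780, from 2846549 to 2847428) read 33.6, 31.6 and 34 FPKM in YIL25 and 217, 234 and 229.5 in Teqing1 (log2 fold change -2.74, SE 0.04, adjusted p = 1.3e-07), with 148 to 234 (median 213) over the 15 other libraries. Os02g0182850 (LOC_Os02g09050, from 4629617 to 4630180) read 15.1, 13.1 and 13.5 and 91.8, 104 and 91.6 (log2 fold change -2.7, SE 0.07, adjusted p = 6.0e-07). Os02g0104100 (LOC_Os02g01355, from 199223 to 204482) had the largest called decrease among genes at 5 FPKM or more, 3.86, 4.47 and 4.26 FPKM in YIL25 and 47.2, 49.6 and 46.8 in Teqing1 (log2 fold change -3.23, SE 0.06, adjusted p = 1.8e-07). The 3 genes had pCPL changes of -0.42, 0.37 and -0.07 and pOE changes of 0.12, -0.15 and -0.26, none of which was called, and in each gene the YIL25 change differed from both.

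Os02g0177600 (LOC_Os02g08100, from 4280502 to 4285929) differed from these in that its pCPL libraries were lower too. It read 3.29, 2.9 and 2.82 FPKM in YIL25 against 32.5, 35.8 and 33.8 in Teqing1 (log2 fold change -3.13, SE 0.07, adjusted p = 3.0e-07), and 8.39, 10.7 and 9.87 in pCPL against 23, 21.7 and 24.7 in Teqing2 (log2 fold change -1.19, SE 0.09, adjusted p = 1.6e-06). The YIL25 decrease was the larger by 1.95 on the log2 scale (difference of changes -1.95, SE 0.10, adjusted p = 1.1e-11). The rule that chose the gene used the same YIL25 and pCPL libraries, so this test is not independent of the choice. The remaining 6 were Os02g0128600, Os02g0136800, Os02g0186900, Os02g0189400, Os02g0199900 and Os02g0211800, whose YIL25 means of 5.53, 1.44, 4.49, 3.91, 14.2 and 0.792 FPKM stood beside Teqing1 means of 18.4, 14.7, 24.3, 15.3, 38.2 and 9.22. None of these 6 was called in pCPL or pOE. Counted by group means, 5 members were under 0.5 FPKM in Teqing1 and at least 5 FPKM in YIL25 (0.0855% of all shared genes) and 4 the other way (0.143%). The fourth of the latter, Os02g0187300 (LOC_Os02g09440), did not meet the gap of 1 and read 0.0682, 0.414 and 0.384 FPKM in YIL25 and 7.83, 4.95 and 4.85 in Teqing1.

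Along the stretch, the 31 genes lay between 110806 and 6247083 by their start, and 17 of them had another of the 31 starting within 50 kb, as did 12 of the 51 in the rest of chromosome 2. By 1 Mb bins the counts were 10, 3, 5, 3, 6, 3, 1 and 0 from the first bin to the eighth. The first bin held 8 higher and 2 lower, and the fifth held 6, all lower. From the first bin to the eighth, the shares of tested genes called in YIL25 were 28.3%, 20.2%, 25.0%, 25.7%, 37.0%, 24.7%, 30.4% and 13.3%. Beyond the members, bin 22 of the same chromosome also held 7 genes apart, all lower, and bins 24, 25 and 26 held 5, 4 and 4. Counts of this size thus also occurred outside the first 8 bins. The share called in YIL25 in those other bins ran from 3.70% in bin 18 to 30.2% in bin 22.

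**Figure D3:**
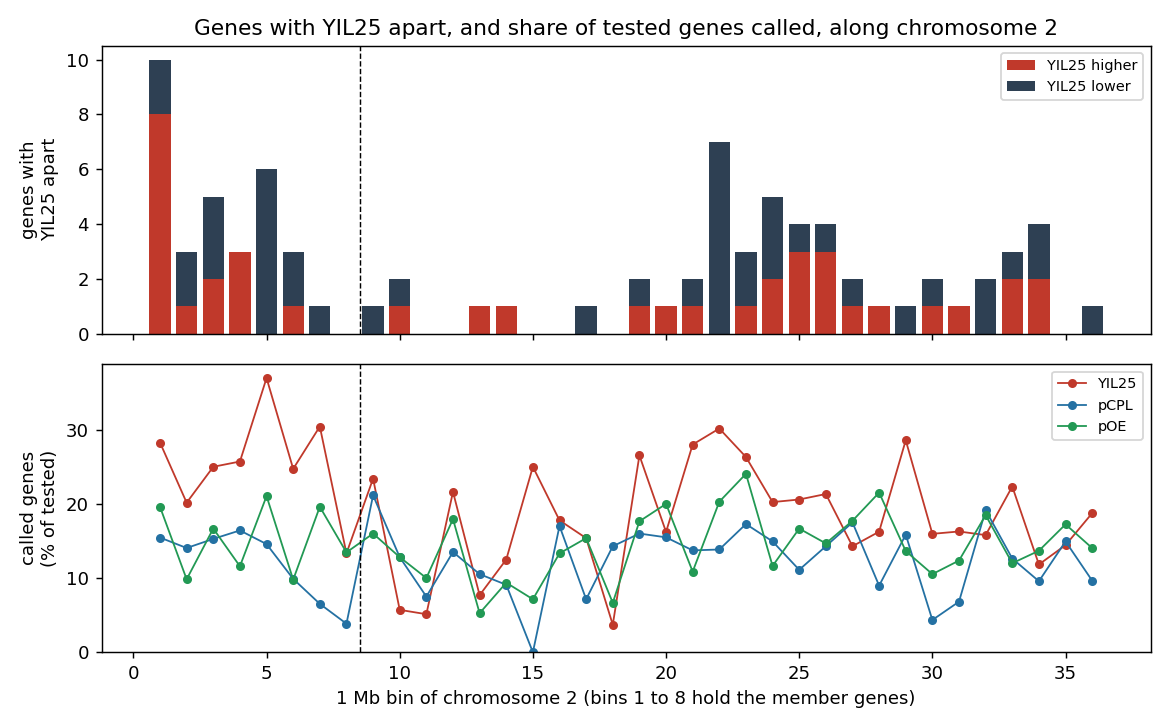
Upper plot, number of genes per 1 Mb bin of chromosome 2 (x axis, bin number) in which YIL25 stood apart, higher in red and lower in dark blue. Lower plot, percent of tested genes called in YIL25, pCPL and pOE; the dashed line follows bin 8, the last bin of the member genes, and the highest YIL25 share, 37.0%, is in bin 5.

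The stretch from 4.5 to 5 Mb, in the fifth bin, held 5 of the genes apart. Of its 46 genes tested in YIL25, 15 were called lower (background 12.7%) and 4 higher (background 8.41%), 41.3% in all. Of the 15, 12 were called in neither pCPL nor pOE, a class that held 7.38% of all genes tested in all 3 comparisons. Os02g0187800 (LOC_Os02g09490) read 55.1, 53.8 and 56.1 FPKM in YIL25 against 162, 185 and 164 in Teqing1 (log2 fold change -1.61, SE 0.05, adjusted p = 1.2e-06). Os02g0181300 (LOC_Os02g08440), which overlaps Os02g0181200, read 69.9, 70.6 and 63.9 against 176, 188 and 178 (log2 fold change -1.40, SE 0.05, adjusted p = 1.2e-06), and Os02g0181200 was called the other way, at means of 40.3 against 18.4. Reads of such a pair cannot be assigned with certainty. The genes Os02g0186800 and Os02g0186900, next to each other, had YIL25 changes of -1.49 and -2.21. The 4 that were higher were Os02g0181200, Os02g0184300, Os02g0185200 and Os02g0186100. Beyond the members, the stretch from 21.5 to 22 Mb of the same chromosome also held 5 genes apart. Of its 24 genes tested in YIL25, 10 were called lower and 0 higher (41.7% called).

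To ask of which genes the YIL25 change differed from that of a BOC1 transgene in Teqing, the difference of the changes was tested in 1 fit of all 18 libraries, over 687 members. The YIL25 change was higher than the pCPL change in 49 genes (background 5.66%) and lower in 105 (background 12.9%), 154 in all, where 18.6% of all genes in that fit were called. Against pOE it was higher in 118 (background 15.4%) and lower in 162 (background 21.1%), 280 in all, where 36.4% of all genes were called. The balance depended on scaling. With median-of-ratios scaling, 61 were higher (background 7.02%) and 89 lower (background 10.6%) against pCPL. Against pOE, 136 were then higher (background 17.3%) and 148 lower (background 18.7%). As deposited, the YIL25 change differed from both in the same direction in 88 members (background 9.43%). Of the 88, 29 were higher (background 3.48%) and 59 lower (background 5.95%), and 79 were called in YIL25. Over the 596 members tested in all 3 comparisons, 146 were called in YIL25. Of the 596, 83 were called in YIL25 and in neither pCPL nor pOE (background 9.4%), 18 higher (background 2.02%) and 65 lower (background 7.38%).

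The strictest class took genes called in YIL25, different from both transgenic lines and with a log2 fold change under 0.5 in size in each of them. It held 29 of the 687 members (background 1.91%), 7 higher (background 0.381%) and 22 lower (background 1.53%). The 8 with the largest YIL25 change were Os02g0104100, Os02g0151600, Os02g0182850, Os02g0136800, Os02g0211800, Os02g0193200, Os02g0101900 and Os02g0149600. Of these, 7 stood apart from all other libraries and have been given above. Os02g0149600 (LOC_Os02g05610) did not meet the gap, at 3.92, 3.91 and 3.72 FPKM in YIL25, 0.211, 0.211 and 0.113 in Teqing1 and up to 2.01 FPKM in pCPL (log2 fold change 2.04 in YIL25).

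Other members moved in all 3 comparisons. Higher in YIL25, higher in pCPL and lower in pOE were 16 genes (background 1.91%), and lower, lower and higher were 8 (background 1.24%). Os02g0184300, which has no locus name and overlaps Os02g0184200 (from 4694037 to 4699309), had the largest such increase. It read 73.4, 74.6 and 74.1 FPKM in YIL25 and 3.31, 3.21 and 2.52 in Teqing1 (log2 fold change 4.23, SE 0.08, adjusted p = 2.0e-07). In the pCPL table it read 31.4, 31 and 31.8 in pCPL and 5.67, 5.02 and 5.61 in Teqing2 (log2 fold change 2.33, SE 0.06, adjusted p = 2.4e-09). In the pOE table it read 2.56, 3.13 and 2.77 in pOE and 42.4, 39.2 and 42.2 in Teqing3 (log2 fold change -3.47, SE 0.08, adjusted p = 8.5e-10). No group overlapped its own Teqing group, and the YIL25 change exceeded that of pCPL (difference 1.90, SE 0.10, adjusted p = 1.9e-11). Os02g0184200, on which reads could be shared with it, was not called in YIL25 (0.19) and was lower in pCPL (-2.10).

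Os02g0161300 (LOC_Os02g06588), annotated as an ATP binding protein, rose from 2.13, 2.34 and 2.63 to 17.7, 18.5 and 18.5 FPKM in YIL25 (log2 fold change 2.52, SE 0.07, adjusted p = 8.0e-07). It rose from 4.66, 4.55 and 5.03 to 22.7, 22.8 and 22.6 in pCPL (log2 fold change 2.04, SE 0.06, adjusted p = 6.4e-09) and fell from 26.3, 26.6 and 25.5 to 6.4, 5.71 and 4.59 in pOE (log2 fold change -2.06, SE 0.10, adjusted p = 1.1e-07). Its libraries overlapped their Teqing group in none of the 3 comparisons. Os02g0123300 rose from 7.32, 8.82 and 7.61 to 39.4, 41.7 and 39.8 in YIL25. It rose from 14.4, 6.93 and 11.2 to 98.1, 75.8 and 95.3 in pCPL and fell from 76.7, 68.5 and 80.2 to 17.2, 15.1 and 13.3 in pOE. The 3 log2 fold changes were 2.21, 2.98 and -2.24, and again no group overlapped its own Teqing group. Os02g0200900 (LOC_Os02g10700), OsFBL7, an F-box protein with leucine-rich repeats (F-box proteins select proteins for ubiquitination), was the most abundant of the 16, with YIL25 at 103, 99.7 and 102 FPKM and Teqing1 at 45, 47.5 and 47.7 (log2 fold change 1.10, SE 0.03, adjusted p = 9.0e-07).

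In these genes the 3 Teqing groups themselves differed. The Teqing3 mean was above the Teqing2 mean in 16 of the 16 genes, by 1.77 to 22.5 times (median 8.61), and in 0 of the 8 genes of the opposite pattern, in which Teqing3 was 0.234 to 0.664 times Teqing2 (median 0.361). Among the 559 members with a mean above 1 FPKM in all 3 Teqing groups, Teqing3 was above Teqing2 in 278. For Os02g0184300, for example, the high means were 31.4 FPKM in pCPL and 41.3 in Teqing3, and the low ones 2.82 in pOE and 5.43 in Teqing2. The calls that choose these genes use the same libraries, and the tables were normalized separately, so these ratios are values only, and their part in the shared pattern was not tested. The pCPL and pOE changes rest on the library labels as given. BOC1 itself read 102, 99.96 and 102.6 FPKM in pCPL against 58.0, 57.5 and 57.4 in Teqing2, and 577, 576 and 584 in pOE against 64.7, 68.4 and 63.3 in Teqing3. In each table the libraries labelled as transgenic thus had more BOC1 transcript, and these values do not separate the transgene from the native gene. BOC1 does not separate the Teqing2 libraries from the Teqing3 libraries, and whether these 2 Teqing groups carry the intended labels was not tested; with the other Teqing group as reference, the pCPL and pOE changes of these genes would differ.

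**Figure D4:**
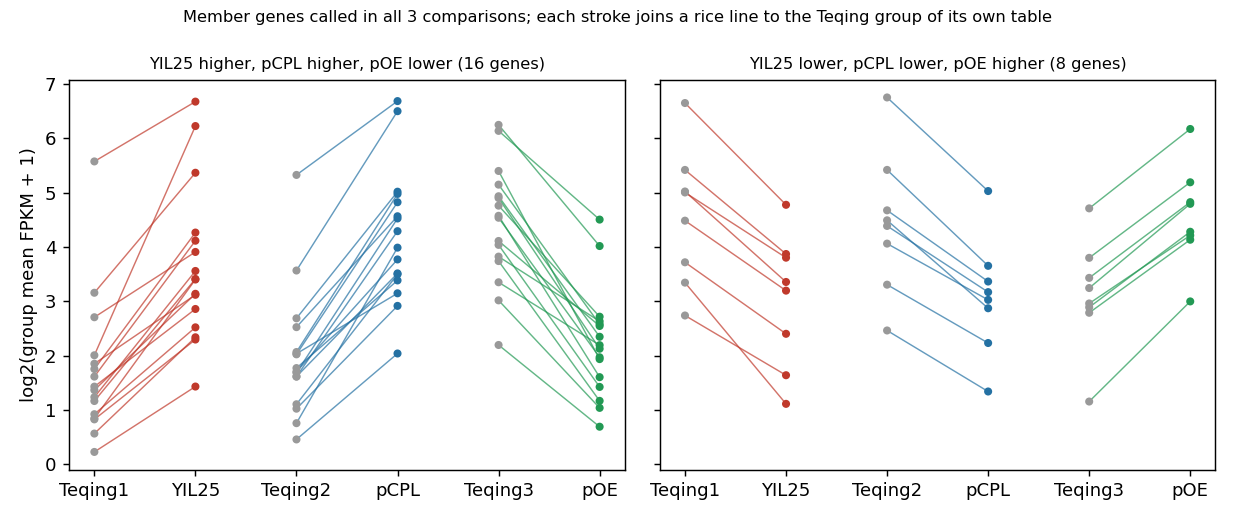
Group means on the log2(FPKM + 1) scale (y axis) of the 16 members called higher in YIL25, higher in pCPL and lower in pOE (left) and the 8 called lower, lower and higher (right). Each stroke joins a line to the Teqing group of its own table; on the left the Teqing3 points lie above the Teqing2 points in all 16 genes, and on the right below them in all 8.

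The opposite pattern was led by Os02g0135200 (LOC_Os02g04230), annotated among the MAPK and related CMGC kinases, which phosphorylate proteins in signalling cascades. It fell from 9.63, 7.94 and 9.89 to 1.11, 1.3 and 1.07 FPKM in YIL25 (log2 fold change -2.23, SE 0.11, adjusted p = 4.6e-06). It fell from 9.23, 8.08 and 9.36 to 3.93, 4.07 and 3.08 in pCPL (log2 fold change -1.08, SE 0.11, adjusted p = 1.4e-05) and rose from 5.91, 5.62 and 6.18 to 15.8, 17.3 and 16.7 in pOE (log2 fold change 1.35, SE 0.07, adjusted p = 2.2e-07). Each group lay clear of its own Teqing group. Os02g0160000 (LOC_Os02g06500), a DSHCT domain protein (a domain of RNA helicases), was the most abundant of the 8, at 25.8, 27.9 and 25.6 FPKM in YIL25 and 104, 99.2 and 96 in Teqing1 (log2 fold change -1.88, SE 0.05, adjusted p = 4.8e-07). The others were Os02g0100300 (a tetratricopeptide repeat protein), Os02g0167300 (a protein with the tubulin/FtsZ domain of cytoskeletal proteins), Os02g0182600 (a protein kinase) and Os02g0119600, Os02g0147700 and Os02g0151800 (expressed proteins), with YIL25 log2 fold changes of -1.32, -1.20, -1.30, -1.65, -1.55 and -1.10.

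The study named genes of these 2 patterns UUD (up, up, down) and DDU (down, down, up), and 15 UUD and 12 DDU loci of its lists fall in the stretch, as 19 and 12 gene entries. The lists were chosen on these same samples, so the counts are no independent evidence of direction. Of the UUD entries, 9 of 17 tested were called higher in YIL25, 12 of 19 higher in pCPL and 12 of 19 lower in pOE, and the 3 medians were 1.10, 1.23 and -1.48 on the log2 scale. Of the DDU entries, 10 of 11 tested were called lower in YIL25, 9 of 12 lower in pCPL and 9 of 11 higher in pOE, with medians of -1.39, -1.16 and 1.39. Over all members tested the 3 medians were -0.21, -0.01 and 0.01. Os02g0182100 (LOC_Os02g08500), a two-component response regulator of the phosphorelay through which cytokinin acts, was not tested in YIL25, where it stood at 0.486, 0.45 and 0.424 FPKM. Os02g0102900 (LOC_Os02g01280), a T-complex protein (a subunit type of the chaperonin that folds tubulin and actin), was at 3.5, 3.27 and 3.63 FPKM in YIL25 and 14.8, 13.2 and 14.9 in Teqing1 (log2 fold change -1.77, SE 0.07, adjusted p = 2.6e-06), and was not called in pCPL (-0.95). Os02g0208100 (LOC_Os02g11740), a plastidic ATP/ADP transporter, was lower in YIL25 (log2 fold change -1.39, SE 0.06, adjusted p = 2.8e-06) and pCPL (-1.21), and its pOE change of 0.97 was not called.

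Of the 16 genes higher in YIL25 and pCPL and lower in pOE, 6 are 1 of 2 gene entries listed for the same locus. There are 15 such loci in the stretch. In 7 of them the less abundant entry was called higher in pCPL and lower in pOE, in 6 of these also higher in YIL25, while the abundant entry of the same locus was called in neither pCPL nor pOE in any of the 7. Among the 136 loci with 2 or more entries outside the stretch that the 3 tables share, 24 had the first pattern (17.6%) and 21 the pattern with YIL25 (15.4%), and in 5 of the 24 the abundant entry was called in pCPL or pOE, so entries of a locus that differ in this way also occurred elsewhere. Histone acetyltransferase HAC1 (LOC_Os02g04490), which adds acetyl groups to histones, is one. Its entry Os02g0137450 read 9.46, 10.3 and 9.13 FPKM in YIL25 and 1.29, 1.45 and 0.966 in Teqing1. It read 19.3, 19.5 and 16.9 in pCPL and 1.55, 2.78 and 1.84 in Teqing2, and 1.94, 1.93 and 2.24 in pOE and 23.4, 21.6 and 23.5 in Teqing3. Its groups did not overlap in any comparison (log2 fold changes 2.25, 2.7 and -2.98; adjusted p = 4.7e-06, 1.4e-07 and 3.4e-09). The entry Os02g0137500, 1991843 to 1997302, was at a mean of 31.1 FPKM in YIL25 and 31.6 in Teqing1, with changes of -0.02, -0.12 and -0.47.

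The U5 small nuclear ribonucleoprotein 200 kDa helicase (LOC_Os02g01740), which unwinds RNA duplexes in the spliceosome, was split in the same way. Os02g0106966 read 9.01, 8.03 and 6.36 FPKM in YIL25 against 1.55, 1.83 and 1.33 in Teqing1 (log2 fold change 1.77, SE 0.14, adjusted p = 4.2e-05), and 33.3, 27.7 and 30.5 in pCPL against 3.92, 1.95 and 3.68 in Teqing2 (log2 fold change 2.95, SE 0.17, adjusted p = 3.5e-07). Os02g0107000 was at 123, 129.9 and 126 in YIL25 against 244, 233 and 252 in Teqing1 (log2 fold change -0.94, SE 0.04, adjusted p = 2.1e-06), below the fold threshold and in the other direction. The remaining 5 loci were LOC_Os02g01940, LOC_Os02g02290, LOC_Os02g04440 (a transducin family protein), LOC_Os02g05880 and LOC_Os02g10970 (a peptidyl-prolyl cis-trans isomerase, which helps proteins fold). Over the 7 loci the less abundant entry changed by 0.46 to 2.33 in YIL25, 1.52 to 3.24 in pCPL and -2.98 to -1.19 in pOE on the log2 scale, and the abundant entry by -1.34 to -0.02, -0.82 to -0.12 and -0.47 to 0.50. One abundant entry was called in YIL25, Os02g0109400 of LOC_Os02g01940, with a log2 fold change of -1.34 (adjusted p = 4.9e-06). The total of a locus cannot be read from either entry.

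**Figure D5:**
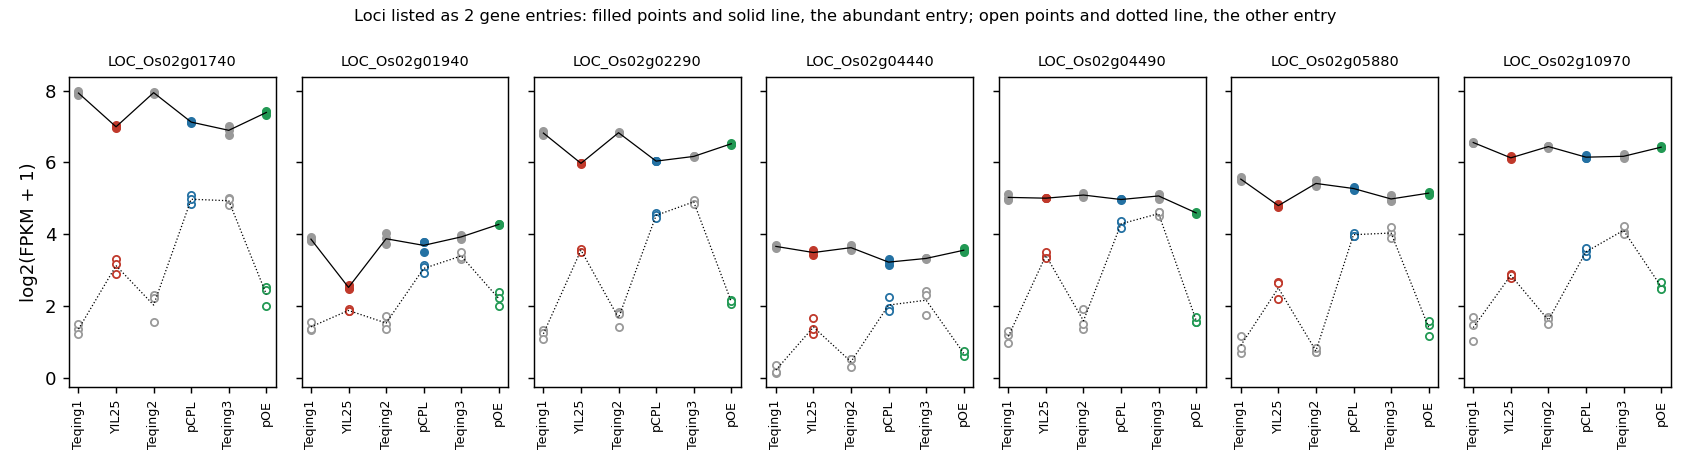
Level on the log2(FPKM + 1) scale (y axis) in the 6 groups (x axis, 1 point per library) of the 7 loci listed as 2 gene entries in which the less abundant entry was called higher in pCPL and lower in pOE. Filled points and solid lines are the abundant entry and open points and dotted lines the other; the dotted lines rise from Teqing1 to YIL25 and from Teqing2 to pCPL and fall from Teqing3 to pOE, and the solid lines hold 1 called change, from Teqing1 to YIL25 in LOC_Os02g01940.

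Some large YIL25 changes were matched by pOE or opposed by pCPL. Os02g0115700 (LOC_Os02g02400), from 825041 to 827640, which overlaps Os02g0115801, fell from 75.1, 72.7 and 78.8 to 11.9, 11.4 and 13 FPKM in YIL25 (log2 fold change -2.55, SE 0.06, adjusted p = 3.4e-07). It fell from 165, 165 and 161 to 14.4, 16 and 15.1 in pOE (log2 fold change -3.35, SE 0.05, adjusted p = 6.6e-11) but rose from 42.6, 43.9 and 44.1 to 93.8, 88.9 and 86.7 in pCPL (log2 fold change 1.03, SE 0.04, adjusted p = 2.5e-08). Os02g0178800 (LOC_Os02g08230) rose from 9.05, 9.8 and 8.05 to 63.3, 64 and 62.3 in YIL25 (log2 fold change 2.69, SE 0.07, adjusted p = 4.8e-07) and from 6.32, 6.26 and 6.26 to 34.6, 33.9 and 37.2 in pOE (log2 fold change 2.31, SE 0.06, adjusted p = 2.3e-09), and was not called in pCPL (-0.31). The pOE and YIL25 changes thus had the same direction and the pCPL change did not. For both genes the groups did not overlap in YIL25 or pOE, and the difference between the YIL25 and pCPL changes passed the test (-3.58 and 3.0, adjusted p = 1.3e-17 and 1.1e-15).

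Os02g0186100 (LOC_Os02g09310) rose in YIL25 and fell in both transgenic lines. It read 25.6, 28.4 and 26.5 FPKM in YIL25 against 4.62, 3.63 and 4.67 in Teqing1 (log2 fold change 2.40, SE 0.09, adjusted p = 2.0e-06). It read 3.22, 2.88 and 3.49 in pCPL against 12.7, 13.9 and 14.4 in Teqing2 (log2 fold change -1.80, SE 0.09, adjusted p = 1.0e-07), and 0.155, 0.0248 and 0.0716 in pOE against 8.73, 8.21 and 6.72 in Teqing3 (log2 fold change -3.03). These groups did not overlap either. Os02g0168200 (LOC_Os02g07170) rose in YIL25 (1.68) and pOE (1.27) and fell in pCPL (-2.28), with libraries at 26, 25.7 and 25.2 FPKM in YIL25 and 2.86, 3.01 and 3.35 in pCPL. The largest pOE change, among called genes of at least 5 FPKM in 1 group, was in Os02g0179600 (LOC_Os02g08330), from 59.9, 67.5 and 59 to 2.21, 1.77 and 1.56 FPKM (log2 fold change -4.47, SE 0.09, adjusted p = 6.9e-10). It was also lower in YIL25 (14.4, 12.4 and 13.9 against 37.4, 43.5 and 38.8; log2 fold change -1.49, SE 0.08, adjusted p = 6.5e-06), and its pCPL change of 0.98 fell just short of the fold threshold. The largest pOE increase by the same rule was in Os02g0232900 (LOC_Os02g13870), from 3.14, 3.08 and 3.17 to 24, 24.6 and 24.1 FPKM (log2 fold change 2.61, SE 0.07, adjusted p = 2.1e-09), a gene that was lower in YIL25 (0.354, 0.0851 and 0.35 against 3.52, 3.26 and 3.13).

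The 4 largest pCPL increases by that rule, all among the 16 shared genes, were Os02g0152800, Os02g0123300, Os02g0106966 and Os02g0114033, at 3.24, 2.98, 2.95 and 2.85 on the log2 scale. The 4 largest decreases were Os02g0162600, Os02g0168200, Os02g0186200 and Os02g0184200, at -2.47, -2.28, -2.14 and -2.10, of which Os02g0186200 fell in pOE as well (-2.25) and was not called in YIL25 (0.17). Os02g0162600 rose in pOE (1.86) and stood at no more than 0.117 FPKM in Teqing1 and YIL25, where it was not tested.

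The 5 most abundant members in Teqing1 all changed by less than 2-fold in YIL25. Os02g0161900 (LOC_Os02g06640) was at 8216, 8725 and 8214 FPKM in Teqing1 and 12270, 12430 and 11940 in YIL25, a log2 fold change of 0.54 (SE 0.03, adjusted p = 1.2e-05), and its groups did not overlap. In pCPL it changed by 0.56 and in pOE by -0.98, each within the 2-fold limit. The next 4 by level were Os02g0121300, Os02g0175600, Os02g0162500 and Os02g0111700, with Teqing1 means of 2041, 1151, 619 and 442 FPKM and YIL25 changes of -0.47, -0.29, -0.40 and -0.13. The first of these 4 moved in opposite directions in YIL25 and pCPL (0.79), and the difference passed the test (-1.26, adjusted p = 6.6e-15).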

How the data were processed

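RNA-seq was made from callus of 18 samples, 3 biological replicates in each of 6 groups. The authors mapped paired-end reads with TopHat2 to the Nipponbare genome (IRGSP-1.0) and deposited FPKM values, in 1 table for each comparison, normalized separately; the submitters' processing notes also name Cufflinks. Alleles here are from Teqing and wild rice, and what mapping them to Nipponbare did to a gene's level was not tested. The YIL25 table holds 65535 entries without coordinates, so members were joined by gene identifier (10521 annotated genes were shared by all 3 tables, mostly of chromosomes 1 and 2). Depth was recovered from the steps between low FPKM values, of which 95.3 to 96.7% were whole fragments within 0.1 in the YIL25 table and 100% in the others. Intervals from depth would cover counting error only and were not used.

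Each table was fitted in limma 3.58.1 (R 4.3.3) on log2(FPKM + 1), with a trended variance, restricted to genes whose mean passed 1 FPKM in at least 1 of the 2 groups. The p-values were adjusted by Benjamini-Hochberg over all tested genes of the table. The pseudocount shrinks the fold change of weakly expressed genes. A call needed 2-fold and an adjusted p under 0.001. Differences of changes came from 1 fit of all 18 libraries. The code was tested on simulated data. Tables and figures were made with Python 3.11.15, pandas 2.3.3, NumPy 2.4.6 and matplotlib 3.10.9.

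Genes named by rule were the 8 largest called YIL25 changes each way, the 4 largest each way in pCPL and pOE (at least 5 FPKM in 1 group, groups not overlapping), genes under 0.5 FPKM in 1 of YIL25 and Teqing1 and at least 5 FPKM in the other, the 8 largest that differed from both transgenic lines, the 5 most abundant and the loci on the study's UUD and DDU lists. Others were named after their values were seen. Gene lists by product were not used, because the identifiers could not be paired with product names here, and only loci on the study's lists carry one. Members and lists were chosen with earlier results of these data known. The deposited fold changes and p-values of the authors' own comparisons were not used. Alternatives changed the scaling, filter, pseudocount, threshold, gap, bin width, samples in the fit and replicate block, and left out each library in turn. For the count of genes apart, only YIL25 libraries were left out.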

Additional observations from a re-analysis of the deposited data

Results flagged for a closer look

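The change of YIL25 against Teqing1 differed from the change of a transgenic line against its own Teqing group in many of the 687 members tested, by limma on all 18 libraries: in 154 genes against pCPL, in 280 against pOE, and in 88 against both in the same direction. Over all 6291 genes of that fit these shares were 18.6%, 36.4% and 9.43%. The 3 Teqing groups belong to separately normalized tables, and the part of any difference between those groups in the counts was not tested.

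Among the 8 genes with a YIL25 change and less than 0.5 on the log2 scale in pCPL and pOE, the difference from pCPL and from pOE was as follows. Passing the test of these differences was part of how the 8 were chosen. For Os02g0101900 it was 2.21 and 2.42, and for Os02g0149600 1.60 and 2.26. For Os02g0104100 it was -3.17 and -2.97, for Os02g0136800 -2.43 and -2.21, and for Os02g0151600 -2.32 and -2.86. For Os02g0182850 it was -3.07 and -2.54, for Os02g0193200 -2.59 and -2.30, and for Os02g0211800 -2.24 and -2.48. All 3 YIL25 libraries lay on the same side of the Teqing1 libraries in each of the 8 genes.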

How the results depend on the processing

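No called change of a member took the other sign under any setting. Changes that were not called did in places: with median-of-ratios scaling the YIL25 changes of Os02g0111700 (-0.13) and Os02g0137500 (-0.02) became 0.04 and 0.14. With an adjusted p under 0.05 and no fold threshold, 192 members were higher and 328 lower in YIL25 (30.3% and 51.7%, beside 29.5% and 43.2% of the entries tested in that table). In pCPL they were 229 and 234 (35.7% and 36.4%, beside 35.0% and 35.6%), and in pOE 227 and 240 (34.9% and 36.9%, beside 35.3% and 36.8%). The number of genes in which YIL25 stood apart depended on the scale and the gap: 76 with a pseudocount of 0.1, 82 with a gap of 0.5 and 10 with a gap of 2, beside 31. In the same order these are 6.95%, 7.50% and 0.915% of the members, where the rest of chromosome 2 had 2.83%, 4.71% and 0.404% and chromosome 1 had 1.94%, 3.89% and 0.139%. The excess of YIL25 calls among members depended on the filter. At a mean above 5 FPKM, 9.935% of members were higher and 15.98% lower, beside 10.23% and 15.09% of the table. Without a filter they were 6.484% and 10.11%, beside 4.443% and 6.811%. With median-of-ratios scaling they were 11.65% and 12.76%, beside 10.07% and 9.79%. Leaving out 1 library at a time gave 50 to 56 higher and 77 to 84 lower in YIL25. The counts were 42 to 49 and 31 to 38 in pCPL, and 34 to 38 and 59 to 63 in pOE. The YIL25 change differed from that of pCPL in 149 to 159 genes and from that of pOE in 277 to 287. For the genes apart only a YIL25 library was left out, which gave 31 to 35. Same-numbered replicates shared only a number (correlations of their deviations -0.0342 to 0.00866), and with the replicate block the counts were 49 higher and 72 lower in YIL25, 47 and 36 in pCPL, 35 and 61 in pOE, and 149 and 279 for the differences. Over the named genes, median-of-ratios scaling left 395 tests on their side of the threshold, with 4 gained and 1 lost. At a depth of 16270000 to 43350000 fragments, a listed 0 does not show that a transcript was absent.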

Other observations

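One member entry of 96 bases, Os02g0189566 of LOC_Os02g09670, was listed at 1.39, 0.240 and 1.82 FPKM in YIL25 and at 0 in the 15 other libraries, while the other entry of that locus, Os02g0189700, was near 0 in YIL25 alone. In LOC_Os02g10860 both entries were lower in YIL25: the Teqing1 and YIL25 means were 53.8 and 14.7 FPKM in Os02g0203000, and 1.18 and 0.0346 FPKM in Os02g0202950. Of the 559 members with a mean above 1 FPKM in all 3 Teqing groups, 15 were at least 4 times as high in Teqing3 as in Teqing2 and 4 the reverse, values that come from separately normalized tables.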
